A study of Mus musculus with 32 samples.

Results

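Bone marrow-derived macrophages (BMDMs) that received no 4-hydroxytamoxifen (4-OHT) were compared between day 3 and day 2. Days are counted from the end of the 4-OHT exposure of treated cells. The comparison takes 8 of the 32 RNA-seq libraries of a study of the DNA exonuclease Trex1. The libraries were taken by their labels alone, every untreated library of day 2 (4) and of day 3 (4), with 2 libraries of each genotype on each day. The cells came from mice carrying Trex1 FL/FL R26-CreERT2, with both Trex1 alleles floxed, or Trex1 WT/FL R26-CreERT2, with 1 floxed and 1 wild type allele. Without 4-OHT the Cre recombinase, made from the ubiquitously active Rosa26 locus and inactive until it binds 4-OHT, leaves the floxed alleles in place, so both genotypes served here as undeleted cells that carry Cre. In the wider design, cells of both genotypes were exposed to 4-OHT (2 µg/ml for 22 h) or left untreated and harvested 1, 2, 3 and 4 days after the exposure ended. Marrow had first been grown for 6 days in medium with 30% supernatant of L929 cells, a fibroblast line that secretes the macrophage growth factor M-CSF. The labels name no animal, culture or batch, so p-values measure the spread between these libraries only, which may be technical. For the same reason the day cannot be told apart from anything else that differed between the harvests.

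M-CSF signals through the receptor Csf1r and drives both the survival and the division of macrophages, and cultured BMDMs divide as long as they receive it. Genes needed for DNA replication are switched on by E2F factors at the start of S phase, and genes needed for mitosis follow under the MuvB complex, which is joined by Mybl2 and Foxm1 in dividing cells and by repressor subunits in resting cells. Dividing cells also make membrane lipid through SREBP factors and amino acids through Atf4, whereas differentiated macrophages are known for clearing debris, presenting antigen on MHC class II, producing complement and exporting cholesterol through LXR target genes.

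The 8 libraries held 37638831 to 51664738 estimated counts (median 43554018). The 2 libraries of a group correlated at 0.985 to 0.987 in log2 CPM (counts scaled to library size by TMM factors) over the genes tested, and no pair was close enough to be one library deposited in duplicate. Macrophage identity genes were high in all 8 libraries, with summed levels of 34000 to 37400 CPM on day 2 and 47400 to 50900 CPM on day 3. Summed levels of marker lists are relative to the raw library total, without TMM factors, so a sum can lie below the TMM-scaled CPM of a member. The defining T cell markers Cd3d, Cd3e, Cd3g and Cd8a and the B cell markers Cd79a, Ms4a1, Pax5 and Ebf1 had at most 3 counts in every untreated library.

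Of 15257 genes tested, 341 were called higher on day 3 (2.24%) and 691 were called lower (4.53%), where a call asks for an adjusted p below 0.01 and a log2 fold change beyond 1.5. By the adjusted p alone, 3786 genes were higher (24.8%) and 3564 were lower (23.4%), and below a gene is said to have risen or fallen only when it passed this test, the quasi-likelihood test of edgeR with Benjamini-Hochberg adjustment. The median log2 fold change over all genes was 0.04. All 4 day 3 libraries lay above all 4 day 2 libraries for 4316 genes (28.3%) and below them for 3944 genes (25.9%). Among the called genes, 328 of the 341 and 665 of the 691 were separated in this way. Gene lists are read below against these shares and this median, and some lists share members. Protein-coding genes made up 253 of the genes called higher and 626 of those called lower, and long noncoding RNAs 59 and 35.

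Proliferation genes fell together, and mitotic and kinetochore genes had the 2 lowest medians of the 30 gene lists. Top2a, the topoisomerase that untangles sister chromatids (chr11:98883769-98915062 in GRCm39), stood at 364 and 343 CPM in the Trex1 WT/FL and at 377 and 328 CPM in the Trex1 FL/FL libraries of day 2. On day 3 the same genotypes gave 24.0 and 22.0 CPM, and 26.8 and 24.0 CPM. The 2 days did not overlap and the genotypes interleaved, with a log2 fold change of -3.87 (SE 0.0681, adjusted p = 1.77e-24). In bulk RNA, fewer cells of a kind and less RNA in each cell cannot be told apart, so these values do not say whether fewer BMDMs were cycling or each cycling cell held less transcript. Mki67, the proliferation antigen Ki-67 (chr7:135291513-135318299), fell from 377 ± 21.3 to 36.4 ± 4.40 CPM (SD, n = 4), with a log2 fold change of -3.38 (SE 0.0690, adjusted p = 9.86e-23). In the exact two-sided permutation test over the 8 libraries, each of the 23 genes of a panel that included Mki67 and Top2a reached p = 0.0286, the smallest p that 70 splits allow. That p only restates that the 2 days did not overlap, which held for 54.1% of all tested genes.

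**Figure D1:**
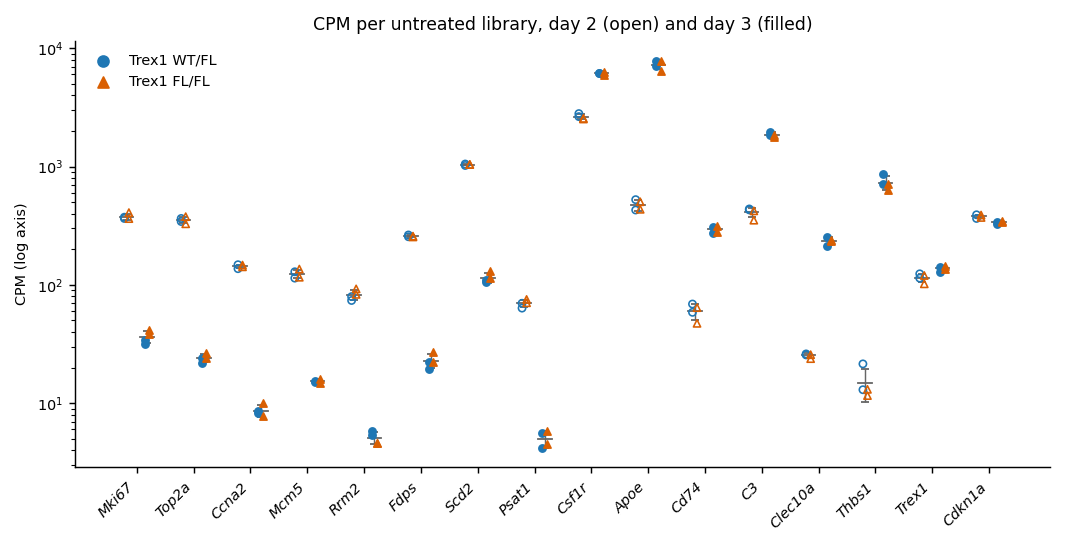
CPM (log axis) of 16 genes in each of the 8 untreated libraries, with open symbols for day 2, filled symbols for day 3, circles for Trex1 WT/FL, triangles for Trex1 FL/FL, and grey bars for the mean ± SD of the 4 libraries. The proliferation genes at the left and the lipid and serine synthesis genes Fdps, Scd2 and Psat1 lie lower on day 3 in all 4 libraries, Csf1r through Thbs1 lie higher, and Trex1 and Cdkn1a move little.

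Mitotic genes fell with 1 exception. In the list of mitotic kinases, spindle and cytokinesis genes, 52 of 53 tested members fell and none rose, 50 of them past the fold limit, with a median of -3.57. Plk1, the kinase that drives entry into and progress through mitosis, had 62.2, 59.3, 72.0 and 57.8 CPM on day 2 (Trex1 WT/FL first) and 3.54, 3.20, 4.00 and 3.61 CPM on day 3. Hmmr, a spindle-associated hyaluronan receptor, had a log2 fold change of -4.07, and Nusap1, which bundles spindle microtubules, fell from 71.4 to 4.03 CPM. Aurkb, the kinase of the chromosomal passenger complex, fell less, by 2.60 on the log2 scale, from between 55.6 and 61.9 to between 8.35 and 11.1 CPM. Stmn1, which frees tubulin from microtubules, fell by 3.34 and Kif4, a motor that condenses chromosomes, by 4.04. The member that did not pass was Pttg1, securin, with a log2 fold change of -0.08.

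All 31 tested genes of the centromere, kinetochore and spindle checkpoint fell, 30 of them past the fold limit, with a median of -3.36. Kntc1 and Knl1, which build the outer kinetochore and anchor the checkpoint, had log2 fold changes of -4.09 and -3.95. Spc24, a subunit of the complex that grips microtubules, went from 15.2, 14.8, 16.8 and 16.3 CPM to 0.918, 0.533, 1.03 and 1.14 CPM. Ska1, which keeps kinetochores on shrinking microtubules, was at 8.08 to 9.43 CPM on day 2 and at 0.250 to 0.854 CPM on day 3. The 2 days did not overlap for any of these 4 genes.

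Among cyclins, CDKs and their activators, all 21 tested genes fell, 15 past the fold limit, with a median of -2.496. Ccna2, the S and G2 phase cyclin (chr3:36619014-36626299), had 148, 137, 147 and 142 CPM on day 2 and 8.54, 8.21, 10.0 and 7.82 CPM on day 3, a log2 fold change of -4.05 (SE 0.0638, adjusted p = 2.51e-26). Ccnb2 and Ccnb1, the mitotic cyclins, and Cdc25c, the phosphatase that activates their kinase, had log2 fold changes of -3.94, -3.78 and -4.15. Cdk1 itself fell from 76.6 ± 4.45 to 13.6 ± 0.656 CPM (SD, n = 4), a log2 fold change of -2.496. Ccnd1, the cyclin that growth factors induce, fell by 2.06, from between 234 and 298 to between 60.8 and 67.2 CPM, while its kinases Cdk4 and Cdk6 fell by 0.57 and 0.78. Ccne1, which starts S phase, fell from 13.1 to 1.90 CPM, with a log2 fold change of -2.78. About 23.7% of the 31-base words of Ccnb1 transcripts also occur in other genes, so its count may be shared with them.

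Replication genes fell with them, less deeply. All 24 genes of origin licensing and firing fell, 17 past the fold limit, with a median of -2.04. Mcm5, a subunit of the replicative helicase, had 129, 114, 136 and 116 CPM on day 2 and 15.2, 15.4, 14.9 and 16.1 CPM on day 3, a log2 fold change of -3.01. The origin firing factor Ticrr fell by 3.78, the origin binder Orc1 by 3.53 and the origin firing kinase Cdc7 by 3.11. Mcm10 had a log2 fold change of -3.27, whereas the licensing factor Cdt1 and its inhibitor Gmnn fell by 1.38 and 1.68. Of 36 genes of the replication fork and Okazaki fragment processing, 35 fell and none rose, 17 past the fold limit, with a median of -1.43. Uhrf1, which helps to copy DNA methylation to the new strand, and Pole, the leading strand polymerase, had log2 fold changes of -3.65 and -3.33. Pcna, the sliding clamp that also serves repair in resting cells, kept between 117 and 130 CPM on day 3 against 266 to 295 CPM on day 2 and fell by 1.21. About 22.0% of its 31-base words occur in other genes.

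All 21 genes of nucleotide synthesis fell, 10 of them past the fold limit, with a median of -1.29. Rrm2, the cell cycle-regulated subunit of ribonucleotide reductase, stood at 79.6, 73.8, 92.5 and 83.1 CPM on day 2, then at 5.77, 5.42, 4.65 and 4.58 CPM on day 3, a log2 fold change of -4.01 (SE 0.0639). Its partner Rrm1 fell by 2.46, from between 193 and 218 to between 34.4 and 39.2 CPM. The thymidylate enzymes Tk1 and Tyms fell by 3.65 and 3.13. In homologous recombination and Fanconi repair, 22 of 25 genes fell and 1 rose, 17 of them lower past the fold limit, with a median of -2.75. Brca1, a repair factor, fell from 32.8 to 4.18 CPM, and Fanci, Fancd2 and Bard1 had log2 fold changes between -3.88 and -3.69.

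The regulators of these genes did not move as a block. Of 18 tested E2F, RB and MuvB regulators, 13 fell, 2 rose and 5 of those that fell passed the fold limit, with a median of -0.73. Mybl2 and Foxm1, the activating partners of MuvB, fell from 18.9 to 1.41 CPM and from 60.2 to 4.96 CPM. E2f7 and E2f8, which repress E2F targets and are E2F targets themselves, fell by 4.22 and 2.64, with E2f7 at 11.5 to 15.3 CPM on day 2 and 0.60 to 0.847 CPM on day 3. The activator E2f1 fell only by 0.57, from 51.0 ± 2.90 to 34.4 ± 1.43 CPM (SD, n = 4), and E2f2 by 1.16. Rb1 had a log2 fold change of 0.01 (adjusted p = 0.915), and Rbl2, the pocket protein p130 of resting cells, rose by 0.34 from between 64.7 and 73.8 to between 84.5 and 89.7 CPM.

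CDK inhibitors split. Of 7 tested, 1 rose and 4 fell. Cdkn1b, the inhibitor p27 that accumulates in resting cells, was the member that rose, from 66.6, 68.8, 63.4 and 68.7 CPM to 117, 123, 112 and 124 CPM, by 0.83 on the log2 scale (SE 0.0466, adjusted p = 9.72e-15). Cdkn1a, the p53-induced inhibitor p21, was at 391, 364, 371 and 389 CPM on day 2, then at 338, 327, 343 and 345 CPM on day 3, a fall of 0.16 that no longer passed when Trex1 WT/FL day 2 replicate 1 was left out or when Trex1 FL/FL was tested alone (adjusted p up to 0.0393). Cdkn2c, p18, fell by 2.17 from between 84.7 and 97.5 to between 19.7 and 21.1 CPM, Cdkn2d by 1.63 and Cdkn2a by 1.76. Of 23 p53 targets, 8 rose and 8 fell, with a median of -0.10, among them Pmaip1, which sensitizes to apoptosis and rose by 1.16, and the p53 inhibitor Mdm2, which fell by 0.25. Of 17 FoxO and quiescence genes, 15 rose and none fell, with a median of 0.64 but only Ypel3 past the fold limit, at 57.8 to 67.5 CPM on day 2 and 186 to 200 CPM on day 3. Txnip, which restrains glucose uptake, rose from 627 to 1290 CPM.

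**Figure D2:**
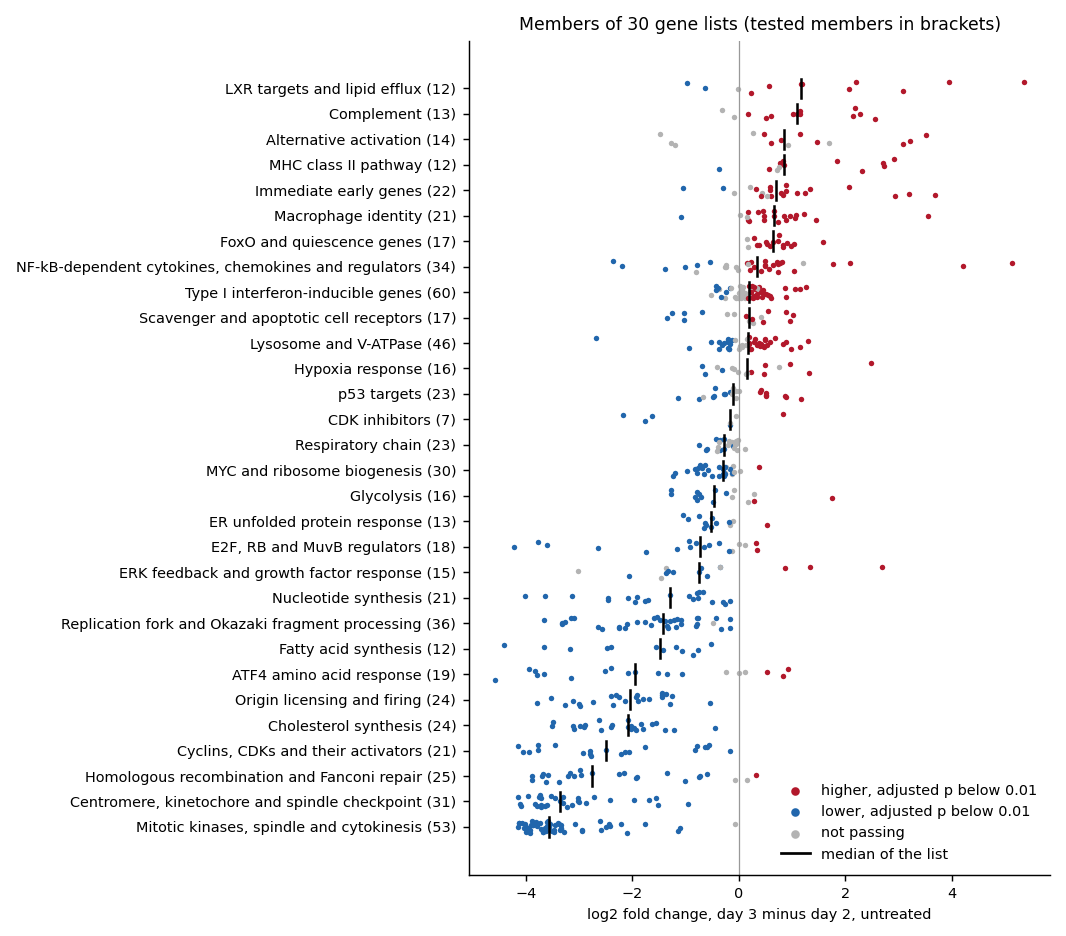
Log2 fold change from day 2 to day 3 (horizontal axis) of every tested member of 30 gene lists (vertical axis, number tested in brackets, ordered by median), with red and blue points for members that rose or fell at an adjusted p below 0.01, grey points for those that did not pass, and a black bar for the list median. The medians run from -3.57 for mitotic genes to 1.17 for LXR targets, against 0.04 over all genes.

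Short promoter stretches of 5 genes are given because they hold letters of the elements at which MuvB, E2F and ATF4 are known to act. The log2 fold changes of these genes were -3.87 (Top2a), -2.496 (Cdk1), -3.46 (Ccnf), -2.46 (Rrm1) and -4.57 (Pycr1). Each stretch is 80 bases of GRCm39 from within the 250 bases before the start of the GENCODE transcript. It is read 5′ to 3′ on the strand of the gene. Capitals mark the searched letters on either strand, namely the CHR (TTTGAA) and CCAAT boxes in the first 3, the E2F site (GGCGGGAA) in Rrm1 and the amino acid response element, CARE (TGATGNAA), in Pycr1.
Top2a, chr11:98915149-98915228, minus strand: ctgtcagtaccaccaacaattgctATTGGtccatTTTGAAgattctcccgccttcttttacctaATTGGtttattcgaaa
Cdk1, chr10:69188773-69188852, minus strand: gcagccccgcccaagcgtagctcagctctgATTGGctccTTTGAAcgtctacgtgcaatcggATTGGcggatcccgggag
Ccnf, chr17:24470468-24470547, minus strand: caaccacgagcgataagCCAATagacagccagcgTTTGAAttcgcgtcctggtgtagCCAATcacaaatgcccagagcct
Rrm1, chr7:102090803-102090882, plus strand: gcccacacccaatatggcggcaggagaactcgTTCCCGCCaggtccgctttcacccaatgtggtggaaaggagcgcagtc
Pycr1, chr11:120534630-120534709, minus strand: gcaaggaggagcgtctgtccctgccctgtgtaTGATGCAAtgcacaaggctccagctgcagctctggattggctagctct
In Top2a, Cdk1 and Ccnf the CHR letters marked lie between 2 CCAAT boxes, and they begin 153, 45 and 78 bases before the transcript start. These 3 promoters held CHR letters a second time, beginning 3, 11 and 38 bases after the start. Top2a and Cdk1 also held CCAAT boxes outside the stretch. Which of these letters act was not tested. This arrangement was not seen in every such stretch of genes called lower. Stretches read in the same way from Ccnb2, Aurkb, Cdc20, Ckap2, Pbk and Zwilch held CHR letters without a CCAAT box. That of Kif22 had a CCAAT box only before the CHR letters. The cut at 80 bases leaves out boxes farther off. Read to 50 bases after the start, Ccnb2 held CCAAT boxes at -49, -16 and 17 from the start, and Ckap2 at -20. Aurkb held them at -181, -45 and -15, so on both sides of its CHR letters at -119.

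Over 12812 promoters of tested protein-coding genes, read from 250 bases before to 50 bases after the transcript start, the CHR letters were present in 13.8%. They were present in 21.7% of promoters of genes called lower and in 15.4% of those called higher. Among mitotic genes 30 of 53 promoters held them (56.6%), among centromere and kinetochore genes 11 of 31 (35.5%), among cyclins and CDKs 6 of 21 (28.6%) and among origin genes 2 of 24 (8.33%). Lists that did not fall held them at shares like that of the cyclins, with 4 of 14 alternative activation promoters (28.6%), 16 of 60 interferon-inducible promoters (26.7%) and 6 of 23 p53 target promoters (26.1%). The E2F letters were in 3.86% of all promoters, in 6.55% of those called lower and in 1.98% of those called higher. They were in 4 of 24 origin promoters (16.7%), 3 of 21 nucleotide synthesis promoters (14.3%) and 3 of 36 replication fork promoters (8.33%). Lists outside replication held similar shares, with 3 of 24 cholesterol synthesis promoters (12.5%) and 3 of 30 MYC and ribosome biogenesis promoters (10.0%). CCAAT boxes stood in 39.8% of all promoters, in 33 of 53 mitotic promoters (62.3%), in 19 of 24 cholesterol synthesis promoters (79.2%), in 11 of 13 promoters of the unfolded protein response (84.6%) and in 8 of 12 of the MHC class II pathway (66.7%), most of whose genes rose. The CARE letters stood in 2.48% of all promoters and in 5 of 19 ATF4 response promoters (26.3%). Of these 5 genes, Pycr1, Chac1 and Cars1 had log2 fold changes of -4.57, -3.66 and -1.35, whereas Slc7a11 and Vldlr had 0.82 and 0.93. The sterol element SRE (TCACNCCAC) stood in 1.25% of all promoters, in 3 of 12 fatty acid synthesis promoters (25.0%) and in 1 of 24 cholesterol synthesis promoters (4.17%). CHR and CCAAT letters can share an end base, and a match describes letters in the window and says nothing of binding.

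**Figure D3:**
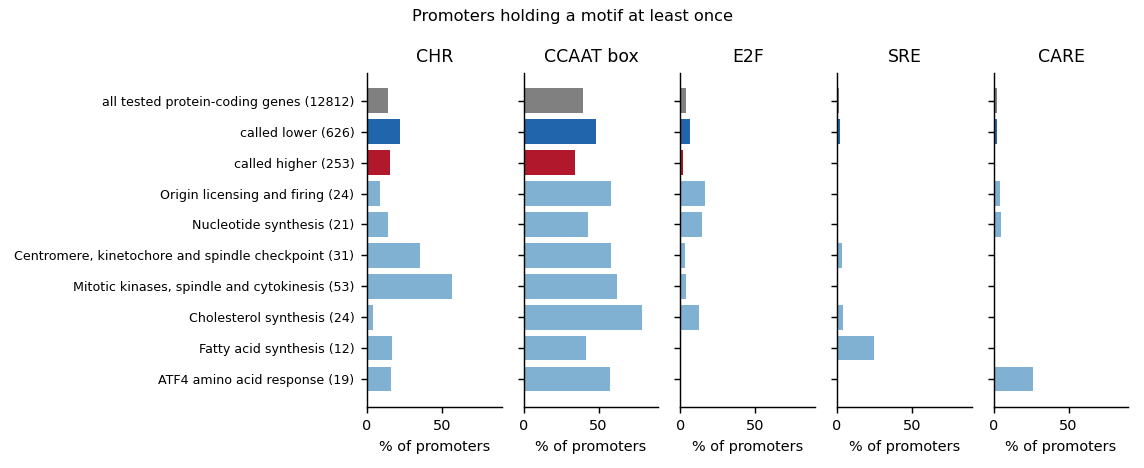
Percent of promoters that hold each of 5 motifs on either strand (horizontal axis), for all tested protein-coding genes, for genes called lower or higher on day 3, and for 7 gene lists (vertical axis, number of promoters in brackets). CHR letters stood in 56.6% of mitotic promoters against 13.8% of all promoters, and CCAAT boxes in 79.2% of cholesterol synthesis promoters against 39.8%.

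Lipid genes turned over in both directions. All 24 tested genes of cholesterol synthesis fell, 21 past the fold limit, with a median of -2.08. Fdps, which makes farnesyl diphosphate (chr3:89000888-89019213), had 264, 255, 254 and 258 CPM on day 2 and 22.5, 19.6, 27.2 and 22.2 CPM on day 3, a log2 fold change of -3.50 (SE 0.0757, adjusted p = 1.19e-21). Idi1, the isomerase before it, and Sqle, the epoxidase after it, fell by 3.12 and 3.10. Insig1, the sterol sensor, fell by 2.38, and the regulators Srebf2 and Srebf1 by 1.21 and 1.19. All 12 genes of fatty acid synthesis fell, 6 past the fold limit, with a median of -1.49. Scd1 and Scd2, the desaturases that make oleate, fell from between 76.5 and 98.8 CPM and between 1020 and 1050 CPM to between 3.05 and 5.88 CPM and between 106 and 131 CPM. Fads2, which desaturates polyunsaturated chains, fell by 3.67 and Fasn, the synthase, by 2.41.

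Genes of lipid efflux rose over the same interval. Of 12 tested LXR targets and lipid efflux genes, 9 rose and 2 fell, 5 of them higher past the fold limit, with a median of 1.17. Apoe, which carries lipid out of macrophages (chr7:19430034-19434947), stood at 429, 525, 435 and 504 CPM on day 2, then at 7080, 7720, 6420 and 7850 CPM on day 3, a log2 fold change of 3.94 (SE 0.287, adjusted p = 2.03e-09). Pltp, which transfers phospholipid, rose from 394 ± 40.9 to 1807 ± 78.3 CPM (SD, n = 4). Apoc1, at 0.0566 to 0.146 CPM on day 2, reached 3.86 to 3.99 CPM, and Apoc2 rose by 3.08, although 44.5% of its 31-base words occur in other genes. The 2 cholesterol exporters parted. Abca1 rose by 1.18, from between 555 and 573 to between 1250 and 1300 CPM, while Abcg1 had a log2 fold change of -0.01 (adjusted p = 0.930). Lpl, a lipase that is also an LXR target, fell by 0.63.

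Amino acid genes of the ATF4 response fell sharply, 13 of 19 lower and 3 higher, with 11 lower past the fold limit and a median of -1.95. Phgdh and Psat1, the first enzymes of serine synthesis, had log2 fold changes of -3.93 and -3.79. Psat1 stood at 63.6, 69.9, 70.6 and 75.3 CPM on day 2, then at 5.57, 4.19, 5.83 and 4.49 CPM on day 3, while 39.8% of the 31-base words of Phgdh occur in other genes. Slc7a5, which imports large neutral amino acids, fell from 53.8 to 3.81 CPM and Asns, the asparagine synthetase, from 89.2 to 10.1 CPM. Pycr1, the last enzyme of proline synthesis, had the largest fall in the list, by 4.57 from 1.74 CPM, and Chac1, which degrades glutathione, fell by 3.66. Atf4 itself fell by 1.07, from between 176 and 186 to between 83.7 and 88.8 CPM. Of the 3 that rose, the cystine importer Slc7a11 rose by 0.82, the lipoprotein receptor Vldlr by 0.93 and the stress protein Nupr1 by 0.54. In the unfolded protein response of the endoplasmic reticulum 10 of 13 genes fell and 1 rose, with a median of -0.53, and the chaperone Hspa5 fell by 0.50.

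Of 30 MYC and ribosome biogenesis genes, 23 fell (14 to 25 over the other fits) and 1 rose, with a median of -0.30. Myc itself fell by 1.24, from between 9.28 and 14.0 CPM to between 4.77 and 5.40 CPM, and Dkc1, which modifies ribosomal RNA, by 1.20. Glycolysis genes fell in 10 of 16 cases and rose in 2 (1 to 4 over the other fits), with a median of -0.46. Pfkp, Gapdh and Eno1 had log2 fold changes of -1.27, -0.82 and -0.78, whereas Pfkfb3, which makes the activator of phosphofructokinase, rose by 1.74 from 32.8 to 110 CPM. Of 16 hypoxia response genes, 6 rose and 3 fell, with a median of 0.14. Vegfa, the endothelial growth factor, rose from between 26.4 and 30.0 to between 142 and 191 CPM, and Hif1a by 1.31. Of 23 respiratory chain genes, 10 fell and none rose, with a median of -0.28, and Atp5f1b, a subunit of ATP synthase, fell by 0.60.

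Genes of macrophage identity rose. Of 21 tested, 18 rose and 1 fell, with a median of 0.66. Csf1r stood at 2800, 2640, 2550 and 2520 CPM on day 2, then at 6140, 6150, 6240 and 5960 CPM on day 3, a log2 fold change of 1.22 (SE 0.0409, adjusted p = 1.05e-19). Adgre1, the F4/80 antigen, rose by 0.66 from 2848 to 4482 CPM, Lyz2, lysozyme, by 0.47, and Maf, a transcription factor of mature macrophages, by 0.36. Siglec1, the sialoadhesin CD169, rose by 1.44. The member that fell was Cx3cr1, the fractalkine receptor, from between 89.1 and 111 to between 39.9 and 53.6 CPM. Irf8, a factor of the monocyte lineage, rose by 1.05 from between 126 and 133 to between 265 and 271 CPM.

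Most genes of antigen presentation and complement rose. Of 12 tested MHC class II pathway genes, 9 rose and 1 fell, 5 higher past the fold limit, with a median of 0.84. Cd74, the invariant chain, had 58.6, 68.9, 64.2 and 47.3 CPM on day 2 and 276, 309, 312 and 282 CPM on day 3, a log2 fold change of 2.31. H2-Eb1, H2-Aa and H2-Ab1, chains of the class II molecules, rose by 2.92, 2.72 and 2.70, and their transcriptional activator Ciita by 1.85 from between 1.82 and 2.38 to between 6.32 and 7.89 CPM. Of 13 complement genes, 11 rose and none fell, 4 past the fold limit (C4b, Cfb, C3 and C2), with a median of 1.09. Of the 31-base words of C4b, Cfb and C2, 42.0%, 60.5% and 35.3% occur in other genes. The rise of C2 no longer passed in 8 of 17 alternative fits. C3, the central component, had 438, 430, 422 and 352 CPM on day 2 and 1840, 1970, 1830 and 1770 CPM on day 3, and the C1q chains C1qa, C1qb and C1qc rose by 1.15, 1.15 and 1.09. Of 14 alternative activation genes 8 rose and none fell, 3 past the fold limit, with a median of 0.86. Clec10a, a galactose-binding lectin (chr11:70047023-70061660), had 26.1, 25.6, 25.7 and 23.8 CPM on day 2 and 213, 255, 236 and 239 CPM on day 3, a log2 fold change of 3.22 (SE 0.0677). The second galactose lectin, Mgl2, rose by 3.52 from below 1 CPM, with 20.7% of its 31-base words found in other genes.

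Scavenger and lysosomal genes moved both ways. Of 17 scavenger and apoptotic cell receptors, 7 rose and 5 fell, with a median of 0.18. The count that rose ranged from 2 to 8 over the other fits, with 2 higher and 5 lower in Trex1 WT/FL alone and 3 and 5 in Trex1 FL/FL alone. Among those that fell were Lrp1, Cd36 and Scarb1, receptors for lipoproteins and apoptotic cells, with log2 fold changes of -1.26, -1.03 and -1.02. Lrp1 was at 1730 to 2100 CPM on day 2 and at 702 to 851 CPM on day 3. Of 46 lysosome and V-ATPase genes, 23 rose and 15 fell, with a median of 0.17. Psap, the precursor of the saposins that present lipids to lysosomal hydrolases, rose by 1.31 from between 5260 and 5940 to between 13600 and 14300 CPM, whereas Ctsk, the osteoclast cathepsin, fell by 2.68.

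Signal-responsive genes rose in part. Of 22 immediate early genes, 16 rose and 2 fell, with a median of 0.70. Nr4a1, an orphan nuclear receptor that stimuli induce within the hour, stood at 2.02, 1.58, 1.67 and 1.52 CPM on day 2, then at 23.1, 23.5, 21.2 and 20.2 CPM on day 3, a log2 fold change of 3.69 (SE 0.124). Egr1 and Fos rose by 2.06 and 1.25, whereas Jun fell by 0.31. Of 34 NF-kB-dependent genes, 20 rose and 6 fell, with a median of 0.35. Il1b, the precursor of interleukin 1 beta, rose by 4.21 from between 0.903 and 1.55 to between 18.0 and 27.2 CPM, while the monocyte chemokines Ccl2 and Ccl7 fell by 2.35 and 2.19. Of 15 genes of ERK feedback, 3 rose and 8 fell, with a median of -0.75, among them Dusp5, a phosphatase of nuclear ERK, which rose by 2.70, and Etv5 and Spred2, which fell by 1.32 and 1.37. Thbs1, thrombospondin 1 (chr2:117941974-117957616), had the largest increase of all genes that met the naming rule, from 21.5, 13.0, 13.1 and 11.6 CPM to 872, 706, 628 and 714 CPM, a log2 fold change of 5.63 (SE 0.253, adjusted p = 2.21e-12).

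Interferon-inducible genes were nearly level between the 2 days. Of 60 tested, 27 rose and 6 fell, with a median of 0.19, and without each library in turn, in each genotype alone or under the other fits the count that rose ranged from 9 to 32. Irf7, the factor that amplifies the interferon response, rose by 1.14 from between 269 and 405 to between 657 and 825 CPM. Ifit1 had 190 to 232 CPM on day 2 and 188 to 227 CPM on day 3, with an adjusted p of 0.775. Cxcl10 and Isg15 had log2 fold changes of -0.52 and -0.38, and their adjusted p of 0.0181 and 0.0245 missed the threshold of 0.01.

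Trex1, the gene that the floxed alleles can remove (chr9:108887001-108888802, minus strand), had 124 and 114 CPM in Trex1 WT/FL and 120 and 102 CPM in Trex1 FL/FL cells on day 2, and 129 and 141 CPM and 144 and 137 CPM on day 3. It rose by 0.26 on the log2 scale (SE 0.0673, adjusted p = 0.00212) and was present in both genotypes. The call was lost in Trex1 WT/FL cells alone and without any of 4 libraries, namely Trex1 WT/FL day 2 replicate 2 and day 3 replicate 2 and Trex1 FL/FL day 2 replicate 2 and day 3 replicate 1, with log2 fold changes of 0.18 to 0.34 over all 18 alternatives and adjusted p up to 0.127. All 31-base words of its transcripts (100%) also occur in other annotated genes, so its count depends on how reads were shared out.

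Markers of several other cell types moved with the day. The 7 osteoclast markers summed to 199 to 271 CPM on day 2 and to 91.3 to 100 CPM on day 3, with 6 of 7 lower, 5 of them past the fold limit. Acp5, the osteoclast phosphatase TRAP, fell from between 58.1 and 93.2 to between 5.55 and 7.75 CPM, and Dcstamp, needed for cell fusion, from 3.67 to 1.44 CPM, while Nfatc1, the osteoclast transcription factor, was at 74.2 to 77.2 and at 78.1 to 84.5 CPM (adjusted p = 0.0259). The granulocyte and progenitor list summed to 38.9 to 51.9 CPM and then to 153 to 177 CPM, with Csf3r, the G-CSF receptor, making up most of the rise, from 35.2 to 160 CPM. Csf3r was the only 1 of its 14 tested members that rose, 11 did not pass, and the progenitor marker Cd34 and the granule enzyme Mpo fell, with log2 fold changes of -3.44 and -4.54, Mpo from a mean below 1 CPM and with overlapping days. The T and NK cell list summed to 3.14 to 4.61 CPM and then to 29.1 to 45.8 CPM, and this was Cd4, at 2.80 to 3.99 CPM on day 2 and 30.3 to 48.1 CPM on day 3, while Cd3d, Cd3e, Cd3g, Cd8a, Ncr1, Nkg7 and Gzmb had at most 3 counts in each library. Summed levels of the B cell list were 176 to 191 CPM and 188 to 213 CPM, those of the fibroblast and endothelial list 9.95 to 13.4 CPM and 12.9 to 18.4 CPM, and those of the dendritic cell list 1.02 to 1.43 CPM and 1.63 to 2.27 CPM. Of 4 tested dendritic cell markers, Zbtb46 rose by 1.28 and Clec9a fell by 2.55, the latter from a mean below 1 CPM. The mast cell list stayed at or below 0.366 CPM and the erythroid list at or below 0.452 CPM. The part of the osteoclast and Csf3r changes in the other results was not tested.

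The step from day 2 to day 3 was set against the steps before and after it by testing the difference of the steps, which share the day 2 or the day 3 libraries. The step from day 2 to 3 was higher than that from day 1 to 2 for 1553 genes (10.2%) and lower for 2530 genes (16.6%) by adjusted p alone. The step from day 3 to 4 was higher than that from day 2 to 3 for 2754 genes (18.1%) and lower for 2990 (19.6%). All 53 mitotic genes and all 31 kinetochore genes had a lower step from day 2 to 3 than from day 1 to 2. The mitotic medians were -0.64 from day 1 to 2, -3.57 from day 2 to 3 and 0.91 from day 3 to 4. Mki67 averaged 722, 377, 36.4 and 59.7 CPM over the 4 days in turn, so its lowest level of the 4 days was that of day 3. For origin genes the medians were -0.95, -2.04 and 0.62, and 20 of 24 had a lower step from day 2 to 3 than the one before.

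Cholesterol synthesis turned between the steps. Its median was 0.92 from day 1 to 2, -2.08 from day 2 to 3 and -0.50 from day 3 to 4, and the step from day 2 to 3 was lower than the one before for all 24 genes. Scd1 averaged 1.33, 85.8, 4.06 and 0.812 CPM over the 4 days in turn, so day 2 was a peak. ATF4 response genes had medians of 0.02, -1.95 and 0.42. By contrast MYC and ribosome biogenesis genes lost most in the earlier step, with medians of -1.20, -0.30 and 0.36, and 23 of 30 had a higher step from day 2 to 3 than from day 1 to 2 and none a lower one. Myc averaged 70.5, 11.89, 5.01 and 16.4 CPM on days 1 to 4. All 60 interferon-inducible genes had a lower step from day 2 to 3 than from day 1 to 2, with medians of 2.40, 0.19 and -0.76. MHC class II genes had medians of -0.01, 0.84 and -0.41, with a higher step from day 2 to 3 for 6 of 12 and a lower one for none, and Cd74 averaged 50.5, 59.8, 295 and 257 CPM. LXR targets had positive medians in all 3 steps, of 2.12, 1.17 and 0.14, and Apoe averaged 37.96, 473, 7268 and 8005 CPM.

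**Figure D4:**
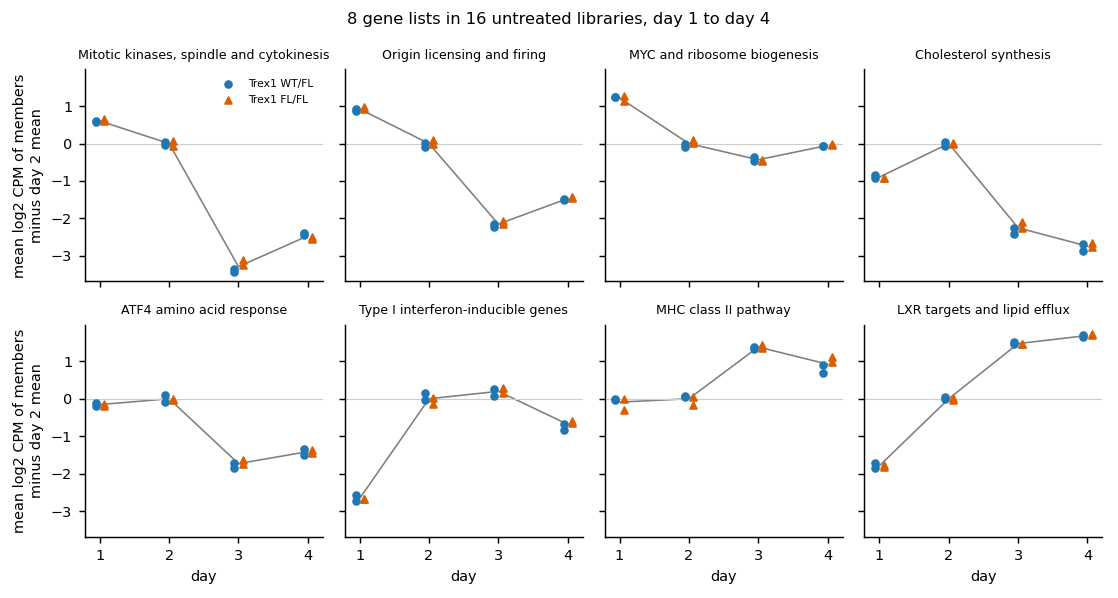
Mean log2 CPM of the members of 8 gene lists, relative to the mean of the 4 day 2 libraries (vertical axis), in each of the 16 untreated libraries by day (horizontal axis), with circles for Trex1 WT/FL, triangles for Trex1 FL/FL and a grey line through the daily means. On day 3 the mitotic list lies between -3.42 and -3.12 and the cholesterol list between -2.40 and -2.10, while the MHC class II list lies between 1.33 and 1.44.

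No difference between the genotypes passed the test. No gene had a step that differed between Trex1 FL/FL and Trex1 WT/FL at an adjusted p below 0.01 in edgeR (0% higher, 0% lower), with 558 genes at an unadjusted p below 0.05 and a smallest adjusted p of 0.619. Tested alone, Trex1 WT/FL cells had 260 genes called higher and 604 lower and Trex1 FL/FL cells 262 and 613. The mitotic medians were -3.71 in Trex1 WT/FL and -3.42 in Trex1 FL/FL cells, and those of cholesterol synthesis -2.17 and -2.01. With 2 libraries per genotype and day, small differences of the step may have been missed.

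Cells of Trex1 WT/FL that had received 4-OHT keep 1 wild type allele and give the same step in 4 libraries outside the contrast above. All 32 libraries shared the filter, the scaling and the estimate of spread, so the 2 sets of calls were not fully independent. In these treated libraries, 283 genes were called higher on day 3 (1.85%) and 593 lower (3.89%). By the adjusted p alone 2698 were higher (17.7%) and 2839 lower (18.6%). Of the genes called higher in untreated cells 210 were also called higher there, 61.6% of the untreated and 74.2% of the treated calls, and of those called lower 522, which is 75.5% and 88.0%. The sign was the same for 337 of the 341 genes and for 683 of the 691. Median log2 fold changes of these sets were 2.10 in untreated and 1.92 in treated cells for genes called higher, and -2.65 and -2.39 for genes called lower. By list, 52 of 53 mitotic, 31 of 31 kinetochore, 24 of 24 origin and 24 of 24 cholesterol synthesis genes fell in the treated cells. Thbs1 rose by 6.66 and Apoe by 3.95 there, and Mki67 fell by 3.39.

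The step itself differed between treated and untreated Trex1 WT/FL cells for no gene in the higher direction (0%) and for 3 in the lower (0.0197%), with 507 genes at an unadjusted p below 0.05. Clec10a rose by 2.37 in treated and by 3.17 in untreated Trex1 WT/FL cells, a difference of -0.81 (adjusted p = 0.00695). In the treated cells it went from 16.7 and 17.4 CPM to 93.9 and 81.8 CPM, below the untreated libraries on both days. Pbk, a mitotic kinase, fell by 4.599 in treated and by 3.36 in untreated Trex1 WT/FL cells, a difference of -1.24 (adjusted p = 0.00179). Mex3b, an RNA-binding protein, had 2.48 and 2.45 CPM on day 2 and 2.04 and 1.59 CPM on day 3 in treated cells, against 9.93 to 11.8 and 23.3 to 28.6 CPM in untreated cells of both genotypes. Its steps were -0.44 and 1.19 in treated and untreated Trex1 WT/FL cells and differed by -1.63. Mex3b was the only gene whose difference also passed the fold limit, and without 1 library in turn no gene passed both limits in 6 of 8 fits.

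**Figure D5:**
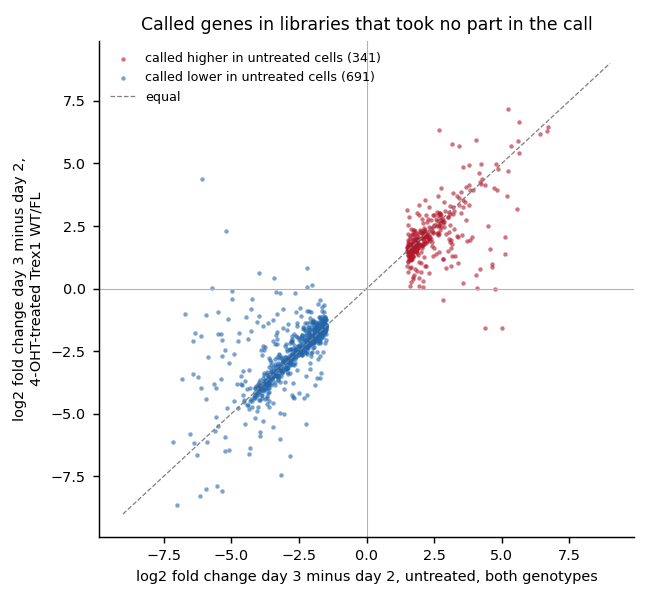
Log2 fold change from day 2 to day 3 in untreated cells of both genotypes (horizontal axis) against that in 4-OHT-treated Trex1 WT/FL cells (vertical axis), 1 point per gene called higher (red, 341) or lower (blue, 691) in untreated cells, with a dashed line where both are equal. The sign was the same for 337 of the red and 683 of the blue points.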

How the data were processed

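RNA-seq reads of BMDMs were quantified by the authors with Salmon and tximport on GRCm39. What they deposited are estimated counts, whole and without normalization, of 54281 gene identifiers in 32 libraries. No length offset was applied to them here. GENCODE vM39 named 51048 identifiers, and the rest held 0.32% of the counts. The processing notes of the submitters also name DESeq2 1.32 and FastQC 11.9.

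Groups came from the labels, and replicate numbers only name libraries. Genes were kept by filterByExpr (minimum count 10), scaled by TMM and fitted in edgeR 4.0.16 (R 4.3.3, limma 3.58.1) by quasi-likelihood with 16 group means over all 32 libraries and 16 residual degrees of freedom (common biological coefficient of variation 0.0912). The step from day 2 to day 3 is the mean of the 2 genotypes' differences. Steps were compared by contrasts in the same fit. CPM of single genes use TMM-scaled library sizes, summed marker levels the raw totals, and log2 CPM used a prior count of 2. Fold changes in this text are edgeR's, on the log2 scale with a prior count of 0.125. The 8 libraries compared held 37638831 to 51664738 counts, which sets the precision of low genes. The tests were checked on simulated counts. DESeq2 1.42.0, other factors, filters, libraries and fold limits were alternatives.

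Named genes were a panel of 23, the 12 largest increases and decreases among called genes whose days did not overlap and whose mean was at least 1 CPM, and up to 4 members per list with the largest change (158 genes). Further members and families are named to describe their groups and were chosen after their values were seen. The comparison, panel and lists were chosen with earlier results of these data known. Promoters were read from GRCm39 at the GENCODE canonical transcript start. Shared sequence was measured as 31-base words of a gene's transcripts found in any other gene. Some list members are counted in their lists but not reported here by name.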

Additional observations from a re-analysis of the deposited data

Results flagged for a closer look

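In 19 of 316 groups of 4 libraries of 1 day, the highest or lowest library stood apart from the other 3 by Dixon's criterion, where chance gives about 1 in 20. Among proliferation genes, Trex1 WT/FL day 2 replicate 2 was lowest for Lrr1 (3.76 CPM) and Pimreg (35.1 CPM), Trex1 FL/FL day 3 replicate 2 was lowest for Sapcd2 (0.0832 CPM) and Trex1 WT/FL day 3 replicate 1 was lowest for Esco2 (0.299 CPM). The same day 3 library was highest for Dusp5 (15.8 CPM), Pgk1 (375 CPM), Ndufb8 (75.9 CPM) and Mpo (0.0427 CPM) and lowest for Egr1 (4.27 CPM). Acat2 was lowest in Trex1 WT/FL day 2 replicate 2 (64.3 CPM) and in Trex1 WT/FL day 3 replicate 2 (4.55 CPM), and Vegfa in the former (26.4 CPM). In Trex1 FL/FL day 2 replicate 2, C3 was lowest (352 CPM) and mt-Cytb highest (2430 CPM), and in Trex1 FL/FL day 3 replicate 1 mt-Cytb (1150 CPM) and Ccl24 (0.675 CPM) were lowest. Cd34 was highest in Trex1 FL/FL day 2 replicate 1 (2.47 CPM), Oscar in Trex1 WT/FL day 3 replicate 2 (0.0242 CPM) and Calcr in Trex1 FL/FL day 3 replicate 2 (0.0277 CPM), the last 2, like Mpo, from very few counts. Trex1 WT/FL day 3 replicate 1 appears most often among these values.

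The step from day 2 to 3 in Trex1 WT/FL cells differed with 4-OHT treatment for Clec10a (-0.81, treated minus untreated, log2), Mex3b (-1.63) and Pbk (-1.24). Without 1 library in turn, no gene passed both the adjusted p and the fold limit in 6 of 8 fits, and 1 gene did in the other 2.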

How the results depend on the processing

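Of 120 alternative values for the 8 counts of genes reported, 108 stayed within 1.5 times the main count. With an adjusted p below 0.05 and a log2 fold change beyond 1, 827 genes were higher and 1207 lower, against 341 and 691. With no minimum fold change, the step from day 2 to 3 differed from the earlier step for 4083 genes (798 with it) and from the later one for 5744 (1203), and the step of treated from untreated Trex1 WT/FL cells for 3 (1). Without 1 library in turn, calls ranged from 306 to 339 higher and from 636 to 686 lower, and genes passing adjusted p alone from 3355 to 3451 and from 3230 to 3354. The difference between genotypes ranged from 0 to 1 genes, with 1 only without Trex1 WT/FL day 2 replicate 1. The difference of the treated step ranged from 0 to 1, with 0 when any of the 4 untreated Trex1 WT/FL libraries or either Trex1 FL/FL library of day 3 was left out. The cause was not tested.

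DESeq2 shared 1020 of the 1032 calls. Same-numbered libraries deviated together only weakly (correlations of 0.0136 to 0.144 over genes), so the numbers were not taken as pairs. With a replicate block, 342 genes were called higher and 675 lower, 3919 and 3643 passed adjusted p alone, the genotype difference was 0, the differences from the neighbouring steps were 792 and 1197 and that of the treated step 1, and 1004 of the 1032 calls were shared. Of 158 named genes, 147 kept direction and call under all 18 alternatives and none reversed. Calls were lost in at least 1 alternative for Trex1, Cdkn1a, Il1a, C2, mt-Cytb, Ndufb8, Mpo, Clec9a, Zbtb46, Ighm and Calcr, of which Il1a, C2, Mpo, Clec9a and Calcr lie below 1 CPM in most libraries. Scaling moved the median of all genes by less than 0.1 on the log2 scale. Depth limits the genes below 1 CPM, and 2 libraries per genotype and day limit the test between genotypes.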

Other observations

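Further gene families, chosen after their values were seen, moved with the day. Of 12 tested nonclassical MHC class I genes (H2-Q, H2-T and H2-M), 10 rose and none fell, with a median of 1.09. H2-Q7 rose from between 4.91 and 7.09 CPM to between 57.0 and 72.7 CPM, although 38.2% of its 31-base words occur in other genes. Over the family this share ran from 3.14% (H2-M2) to 71.4% (H2-T15), so reads may be split among members and their counts are not separate measurements. All 3 Nr4a receptors rose. Of 6 Fc receptor genes all rose, with Fcgrt, the neonatal Fc receptor, by 1.90, and of 12 Toll-like receptor genes 8 rose and 1 fell, with Tlr9, the DNA sensor, at 31.3 to 42.3 and 97.3 to 113 CPM. The secreted metal-binding proteins Trf, transferrin, and Cp, ceruloplasmin, rose by 3.02 and 2.68, with Trf at 82.6 ± 5.72 and then 670.5 ± 43.7 CPM (SD, n = 4), and Selenop, which carries selenium, rose by 1.94.

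Of 18 cytosolic aminoacyl-tRNA synthetase genes, which load amino acids onto tRNA, 17 fell and none rose, with a median of -0.70, and none passed the fold limit. Yars1 fell from between 57.9 and 63.9 to between 23.1 and 26.3 CPM, and Qars1, the member that did not pass, was at 126 to 131 and at 130 to 133 CPM. Of 12 tubulin genes 10 fell, with a median of -1.54 and Tubb5 at 915 to 1050 CPM on day 2 and 321 to 330 CPM on day 3. Of 10 collagen IV, laminin and nidogen genes of the basement membrane 8 fell, 6 past the fold limit, with Col4a2 at 26.8 to 39.7 and at 5.13 to 10.1 CPM. Of 36 kinesin genes 17 fell, 14 past the fold limit, and 8 rose, with a median of -0.15. Some of those that fell, such as Kif11, are also counted in the mitotic list. Kif11, which separates spindle poles, had a log2 fold change of -3.57, and Kif13b, a transport motor that rose, 0.75. Ezh2, the histone methyltransferase of Polycomb, fell by 2.07. Medians of the same step in 4-OHT-treated Trex1 WT/FL cells were 1.16 for nonclassical MHC class I, -0.77 for the synthetases, -1.50 for tubulins and -1.59 for the basement membrane genes.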
